A study of Mus musculus with 13 samples.

Results

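The genes of the elastic fiber core, *Eln*, *Fbn1*, *Fbn2*, *Fbln1*, *Fbln2*, *Fbln5*, *Efemp2*, *Mfap4*, *Lox* and *Loxl1*, were followed through RNA-Seq counts of mouse skin at P4 (postnatal day 4). They were chosen by name for their place in the fiber and are 10 of the 49315 genes in the count files and 10 of the 20168 genes with enough counts for a test. An elastic fiber is a core of cross-linked elastin on a scaffold of fibrillin microfibrils. Fibulins and microfibril-associated proteins bind elastin to that scaffold, and lysyl oxidases oxidize lysines of the elastin monomer so that the chains cross-link. In skin the fibers run through the dermis, are laid down mainly by dermal fibroblasts, and give the tissue its recoil.

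Whole skin of the back was taken from 3 WT and 3 littermate mice at P4, with 1 library of total RNA for each mouse. The littermates, labelled DKO, carry floxed *Kctd1* and *Kctd15* and a Cre recombinase under the keratin 14 promoter, which acts in keratinocytes, so cells of the dermis are not its intended target although their RNA is in every library. Further alleles of the WT mice are not stated in the labels. The sample titles carry a number shared across genotypes, 47347 for WT replicates 1 and 2 and DKO replicates 2 and 3, and 40972 for WT replicate 3 and DKO replicate 1, and the labels do not say what it stands for. WT replicates 1, 2 and 3 held 14836798, 17643043 and 17470709 counts on genes, and DKO replicates 1, 2 and 3 held 11263863, 14950538 and 15050299. At these depths 3 counts, taken as the smallest number to be told from 0, correspond to 0.17 to 0.266 CPM, which covers counting error only. Levels are given as normalized counts, that is counts scaled to the mean effective library size by edgeR's TMM method. Fold changes are log2 values of DKO over WT from the quasi-likelihood F test of edgeR, with p adjusted by Benjamini-Hochberg over the 20168 genes, and a gene was called at an adjusted p under 0.05 with an absolute log2 fold change over 1. Reassigning 3 of 6 libraries in every way leaves no two-sided p under 0.1 for any gene.

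Counts of the targeted genes come first. *Kctd1* (ENSMUSG00000036225, GRCm38 chromosome 18, 14968685 to 15151446, minus strand) had 443, 410 and 442 normalized counts in WT replicates 1, 2 and 3 and 506, 985 and 735 in DKO replicates 1, 2 and 3. *Kctd15* (ENSMUSG00000030499, chromosome 7, 34639014 to 34656732, minus strand) had 736, 737 and 763 normalized counts in WT replicates 1, 2 and 3 and 1130.5, 1509 and 1325 in DKO replicates 1, 2 and 3. Both genes were higher in every DKO library than in every WT library, the reverse of a loss, and neither passed the threshold in edgeR, with log2 fold changes of 0.78 and 0.83 (adjusted p = 0.342 and 0.107, Benjamini-Hochberg). In DESeq2 the adjusted p was 0.0740 for *Kctd1* and 0.000579 for *Kctd15*. In edgeR it was 0.0306 and 0.00293 with no filter on low counts, and 0.0335 and 0.0173 without DKO replicate 1. It was larger in edgeR without WT replicate 1, at 0.928 and 0.590, and with the dermal fibroblast list described below as library size, at 0.534 for both. The adjusted p of these genes thus depends on the tool, the filter, the scaling and the libraries, while their log2 fold changes were under 1 in every setting. A count over a whole gene does not show whether the floxed exon was lost, so each direction below is that of the libraries labelled DKO against those labelled WT. As for markers of the skin layers, *Krt10* of the suprabasal epidermis and *Col1a1* of the dermis reached 29313 ± 1251 and 115760 ± 13836 normalized counts in WT skin (mean ± SD of 3 libraries). None of the genes in the keratinocyte, fibroblast, endothelial, adipocyte and muscle lists described below had 0 counts in all 6 libraries. That is a low bar and does not by itself show the tissue.

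Across the elastic fiber core, 9 of 10 genes had a higher mean level in DKO than in WT skin, by 0.13 to 0.48 on the log2 scale, and *Efemp2* was level between the groups after TMM. The same direction was found for 52.9% of all genes tested. The median log2 fold change was 0.30 over the 10 genes, 0.16 to 0.42 with 1 replicate left out, and 0.02 over all genes tested. None of these differences passed the test: edgeR called 0 of 10 genes, against 14 or 0.0694% of all genes, and without the threshold on the fold change again 0 of 10, against 0.0694%. At an unadjusted p under 0.05, edgeR returned 2 of 10, *Fbln2* and *Loxl1*, both higher in DKO skin, a direction that 4.96% of all genes shared at this level. That count was 0 of 10 without WT replicate 1 or WT replicate 2, against 2.67% and 3.07% of all genes. It was 5 of 10 without DKO replicate 3, against 6.43%, and with the title number as a block, against 5.77%. DESeq2 returned 0 of 10 at an adjusted p under 0.05, against 1.16% of all genes, and 3 of 10 at an unadjusted p under 0.05, all higher in DKO skin, against 2.90%. Only *Fbln2* had every DKO library above every WT library, which held for 7.24% of all genes, and 0 of 10 genes had every DKO library below every WT library, against 5.96%. With the dermal fibroblast list described below as library size, 0 of 10 genes had every DKO library above every WT library, against 1.30% of all genes, and 1 of 10 had every DKO library below, against 16.1%. This scaling lowered the median of all genes tested from 0.02 to -0.28, a shift that is part of every log2 fold change given under it. Without WT replicate 3 the DKO libraries were all above for 7 of 10 genes, against 12.3% of all genes, and without DKO replicate 3 for 6 of 10, against 14.3%. Leaving out any of the other 4 libraries kept it at 1 of 10, against 9.40% to 14.6%.

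**Figure D1:**
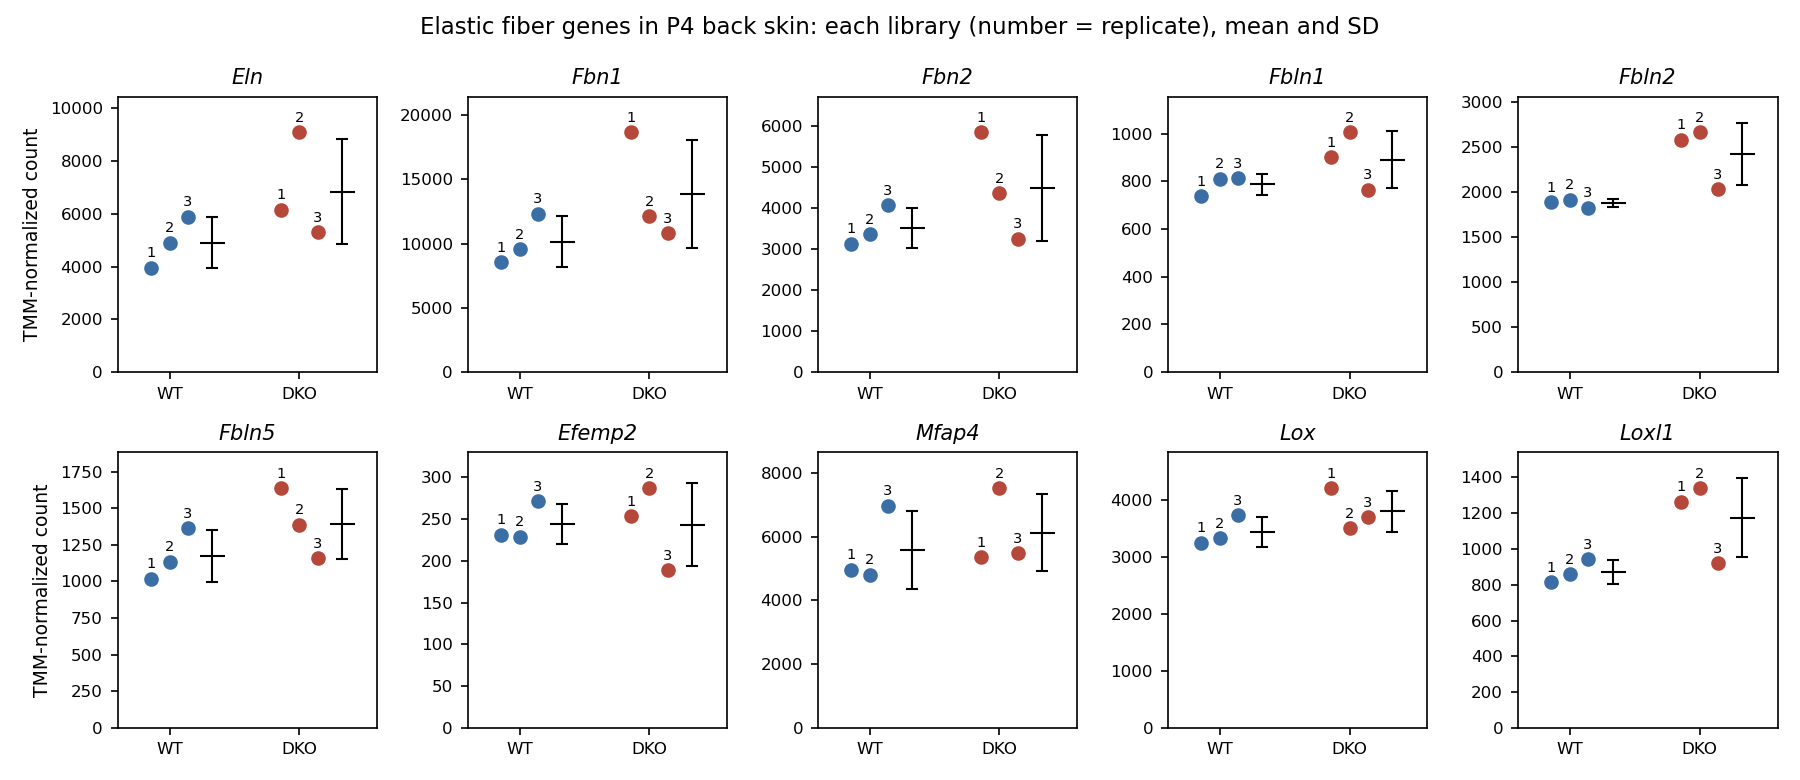
TMM-normalized counts of the 10 elastic fiber genes (y axis, from 0) in each library of WT (blue) and DKO (red) P4 back skin (x axis), with the replicate number at each point and the mean and SD of 3 libraries at its right in black. DKO replicates 1 and 2 hold the highest value of all 10 genes, and DKO replicate 3 lies below WT replicate 3 for all but *Fbln2*.

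Levels of different genes were compared per length, as normalized counts per kilobase of counted exon. The order depends on this length, which covers all annotated exons of a gene, for example 8098 bp for *Eln* and 1922 bp for *Mfap4*. In WT skin *Mfap4* was the most abundant, at 2901 ± 629.9 (mean ± SD of 3 libraries). The next level was shared by *Fbn1* at 836 ± 162, *Lox* at 715 ± 54.0 and *Eln* at 607 ± 119.6, neighbours that differed by less than the larger of their SDs. *Fbn2* at 335 ± 46.4 and *Fbln2* at 295 ± 7.19 were likewise not apart beyond their spread, and *Loxl1* followed at 265 ± 20.0 per kilobase. *Fbln5* at 201 ± 30.2 and *Fbln1* at 180.3 ± 10.1 again lay within their spread, and *Efemp2* was the lowest at 92.1 ± 8.94. Of the summed level per kilobase of the 10 genes, *Mfap4* took 44.9% ± 2.72 in WT and 41.5% ± 5.47 in DKO skin, with overlapping groups. The share of *Efemp2* was 1.53, 1.46 and 1.34% in the WT libraries and 1.21, 1.26 and 1.10% in the DKO libraries, without overlap, and for the other 9 genes the groups overlapped. At the two-sided p of 0.1 stated above, 1 of 10 is the number that chance alone gives. These shares do not depend on the scaling of the libraries.

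*Eln* (ENSMUSG00000029675, chromosome 5, 134702593 to 134747323, minus strand) encodes tropoelastin, the monomer of the fiber core. Its counts were 3950.4, 4898 and 5887 normalized counts in WT replicates 1, 2 and 3 and 6151, 9091 and 5298 in DKO replicates 1, 2 and 3. The lowest values were WT replicates 1 and 2, the highest by far was DKO replicate 2, and DKO replicate 3 lay below WT replicate 3, so the groups overlapped. The log2 fold change of 0.48, its standard error (SE) being 0.217, was the largest of the 10 genes in the fit to all 6 libraries with TMM and did not pass (adjusted p = 0.671, quasi-likelihood F test of edgeR, Benjamini-Hochberg adjustment). It was 0.06 between the libraries of title number 40972, 1 of each genotype, and 0.66 between those of 47347, 2 of each. Without DKO replicate 2 it was 0.23, and 0.15 when the counts of a dermal fibroblast list described below served as library size, in both cases less than that of *Fbn1*. The exons of *Eln* share 267 bp, 3.3% of its counted length, with the antisense gene *Gm30003*, which had 22 counts in all 6 libraries together.

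The fibrillins form the microfibrils on which elastin is laid down, *Fbn1* throughout life and *Fbn2* mainly during development. *Fbn1* (ENSMUSG00000027204, chromosome 2, 125300594 to 125507993, minus strand) had 8525, 9549.9 and 12331 normalized counts in WT replicates 1, 2 and 3 and 18653, 12117 and 10784 in DKO replicates 1, 2 and 3. DKO replicate 1 stood above all other libraries, while DKO replicates 2 and 3 lay below WT replicate 3. *Fbn2* (ENSMUSG00000024598, chromosome 18, 58008623 to 58209926, minus strand) had 3129, 3356 and 4062 normalized counts in WT replicates 1, 2 and 3 and 5843, 4356 and 3251 in DKO replicates 1, 2 and 3. DKO replicates 1 and 2 were above the WT libraries and DKO replicate 3 lay among them. The log2 fold changes were 0.45 (SE 0.223) for *Fbn1* and 0.35 (SE 0.204) for *Fbn2* (adjusted p = 0.739 and 0.811, edgeR with Benjamini-Hochberg adjustment). Without DKO replicate 1 they were 0.16 and 0.10, and when scaled to the dermal fibroblast list 0.16 and 0.04. Within title number 40972, which holds that library, the log2 differences were 0.60 and 0.52, and within 47347 they were 0.34 and 0.22. Per kilobase, *Fbn1* exceeded *Fbn2* in every library, with ratios of 2.35, 2.46 and 2.62 in WT and 2.76, 2.40 and 2.87 in DKO skin that overlapped. *Fbn1* shares 2442 bp of exon, 20.1% of its counted length, with the antisense gene *Gm9913*. Whether the counting used the strand is not given in the sources used here, and *Gm9913* itself had 83 counts in all 6 libraries together.

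Among the fibulins, *Fbln5* (fibulin-5) and *Efemp2* (fibulin-4) bind tropoelastin and bring it to the microfibrils and to the lysyl oxidases, and *Fbln1* and *Fbln2* are found in elastic fibers and basement membranes. *Fbln2* (ENSMUSG00000064080, chromosome 6, 91212455 to 91272540, plus strand) had 1888, 1917 and 1828 normalized counts in WT replicates 1, 2 and 3 and 2582, 2664 and 2031 in DKO replicates 1, 2 and 3. The WT libraries lay close together and all DKO libraries were above them, DKO replicate 3 by the smallest margin. The means were 1878 ± 45.8 and 2425 ± 344 (SD, 3 libraries each), and the log2 fold change was 0.37 (SE 0.134, adjusted p = 0.511, quasi-likelihood F test of edgeR, Benjamini-Hochberg adjustment). The paralog *Fbln1* (ENSMUSG00000006369, chromosome 15, 85205949 to 85286535, plus strand) had 737, 811 and 814 normalized counts in WT replicates 1, 2 and 3 and 903, 1006 and 766 in DKO replicates 1, 2 and 3. DKO replicates 1 and 2 were the highest libraries and DKO replicate 3 was inside the WT range. Its log2 fold change was 0.18 (SE 0.142, adjusted p = 0.903 in edgeR, Benjamini-Hochberg), and -0.14 when scaled to the dermal fibroblast list, where *Fbln2* was at 0.05. With 1 replicate left out it was 0.09 to 0.28 for *Fbln1*, lowest without DKO replicate 2, and 0.30 to 0.48 for *Fbln2*. The ratio of *Fbln1* to *Fbln2* per kilobase, which is free of that scaling, was 0.569, 0.617 and 0.650 in WT and 0.510, 0.551 and 0.550 in DKO skin. Each DKO value of this ratio was below each WT value, the only one of 7 ratios computed whose groups did not overlap. The ratios were chosen after the data were seen, and 1 of 7 is near the number that chance alone gives at the two-sided p of 0.1.

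*Fbln5* (ENSMUSG00000021186, chromosome 12, 101746565 to 101819055, minus strand) had 1020.2, 1135 and 1366 normalized counts in WT replicates 1, 2 and 3 and 1635, 1388 and 1158 in DKO replicates 1, 2 and 3. DKO replicates 1 and 2 exceeded all WT libraries, the latter only narrowly, and DKO replicate 3 was near WT replicate 2. The log2 fold change was 0.25 (SE 0.166), and -0.05 when scaled to the dermal fibroblast list (adjusted p = 0.866 and 0.906, edgeR with Benjamini-Hochberg adjustment). It was 0.10 without DKO replicate 1. *Efemp2* (ENSMUSG00000024909, chromosome 19, 5473973 to 5481853, plus strand), the least abundant of the 10 genes, had 231, 229 and 271 normalized counts in WT replicates 1, 2 and 3 and 254, 287 and 189 in DKO replicates 1, 2 and 3. DKO replicate 3 was the lowest and DKO replicate 2 the highest library, so that the DKO group enclosed the WT group. With means of 244 ± 23.7 and 243 ± 49.7 (SD), its log2 fold change was -0.0063 (SE 0.189, adjusted p = 0.997 in edgeR, Benjamini-Hochberg), and its sign depended on the libraries kept, with 0.15 without DKO replicate 3 and -0.14 without DKO replicate 2. When scaled to the dermal fibroblast list it was -0.33 (adjusted p = 0.535 in edgeR, Benjamini-Hochberg), the lowest value of the 10 genes. Set against each other per kilobase, *Fbln5* was above *Efemp2* in every library, by ratios of 2.00, 2.25 and 2.29 in WT and 2.93, 2.20 and 2.78 in DKO skin. DKO replicates 1 and 3 were above the WT values and DKO replicate 2 was among them.

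*Mfap4* (ENSMUSG00000042436, chromosome 11, 61485431 to 61488900, plus strand) encodes a microfibril-associated glycoprotein that binds both fibrillin and elastin. Its counts were 4958, 4797 and 6970.3 normalized counts in WT replicates 1, 2 and 3 and 5353, 7507 and 5484 in DKO replicates 1, 2 and 3. Within each genotype a single library stood above the others, WT replicate 3 and DKO replicate 2, and the groups overlapped. The log2 fold change was 0.13 (SE 0.189, adjusted p = 0.951, quasi-likelihood F test of edgeR, Benjamini-Hochberg adjustment). It was -0.18 when scaled to the dermal fibroblast list and -0.04 without DKO replicate 2. The title numbers gave opposite signs, -0.38 for 40972 and 0.40 for 47347. A stretch of 89 bp of overlap with exons of the antisense gene *Mapk7*, 4.63% of the counted length of *Mfap4*, could hold reads of either gene.

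The lysyl oxidases close the sequence of assembly. *Lox* (ENSMUSG00000024529, chromosome 18, 52516069 to 52529867, minus strand) had 3250.3, 3333 and 3736 normalized counts in WT replicates 1, 2 and 3 and 4206, 3505 and 3698 in DKO replicates 1, 2 and 3. DKO replicate 1 was the highest library, and the other DKO libraries lay between WT replicates 2 and 3. *Loxl1* (ENSMUSG00000032334, chromosome 9, 58287738 to 58313186, minus strand), whose product cross-links elastin in the presence of fibulin-5, had 813, 859.8 and 944 normalized counts in WT replicates 1, 2 and 3 and 1265, 1338 and 922 in DKO replicates 1, 2 and 3. DKO replicates 1 and 2 were well above the WT libraries, which lay close together, and DKO replicate 3 was just below WT replicate 3. The log2 fold change of *Lox* was 0.14 (SE 0.126), and -0.14 when scaled to the dermal fibroblast list, and that of *Loxl1* was 0.43 (SE 0.162, adjusted p = 0.914 for *Lox* and 0.538 for *Loxl1*, both in edgeR with TMM and Benjamini-Hochberg adjustment). Without DKO replicate 1, *Lox* was at 0.05, and when scaled to the dermal fibroblast list *Loxl1* was at 0.11. The difference of *Loxl1* was close to the same within both title numbers, 0.42 for 40972 and 0.41 for 47347. *Lox* was the more abundant of the pair per kilobase in every library. The ratio of *Loxl1* to *Lox* was 0.365, 0.376 and 0.368 in WT skin, a narrow range, and 0.439, 0.557 and 0.364 in DKO skin, where only DKO replicates 1 and 2 were above it.

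The DKO libraries did not move as one. *Eln*, *Fbln1*, *Fbln2*, *Efemp2*, *Mfap4* and *Loxl1* were highest in DKO replicate 2, and *Fbn1*, *Fbn2*, *Fbln5* and *Lox* in DKO replicate 1. The ratio of *Eln* to *Fbn1* per kilobase, core to scaffold, showed the split: it was 0.694, 0.768 and 0.715 in WT skin and 0.494, 1.12 and 0.736 in DKO skin. The WT values lay within a narrow band, DKO replicate 1 was below it and DKO replicate 2 above it, while DKO replicate 3 was inside. Against the fibrillar collagen gene *Col3a1*, the ratio of *Eln* was 0.0755, 0.0902 and 0.0922 in WT and 0.0786, 0.121 and 0.0919 in DKO skin. That of *Fbn1* was 0.109, 0.117 and 0.129 in WT and 0.159, 0.108 and 0.1249 in DKO skin. Both sets overlapped between the groups, with the highest value in DKO replicate 2 for *Eln* and in DKO replicate 1 for *Fbn1*.

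Expressed as the median log2 difference of the 10 genes from their WT mean, the libraries stood at -0.12, -0.04 and 0.19 in WT and 0.40, 0.34 and 0.04 in DKO skin. WT replicate 3 was thus above DKO replicate 3. The summed normalized counts of the 10 genes gave the same order, 28502, 30888 and 38210 in WT and 46844, 43258 and 33579 in DKO skin. Within title number 40972, 8 of 10 genes were higher in the DKO library, the exceptions being *Efemp2* and *Mfap4*, and within 47347 10 of 10 were higher in the DKO mean.

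Markers of dermal fibroblasts, the cells that mainly lay down elastic fibers in skin, had higher counts as well. Of the fibroblast list 11 of 11 genes were higher in DKO skin, against 52.9% of all genes, their median log2 fold change being 0.32 (7 of 11 and 0.21 without DKO replicate 1, 9 of 11 without WT replicate 2). In edgeR 0 of 11 had an adjusted p under 0.05, against 0.0694% of all genes, and 2 of 11 were higher at an unadjusted p under 0.05, against 4.96%. The latter count was 0 of 11 without WT replicate 2, against 3.07%, and 6 of 11 without DKO replicate 3, against 6.43%. In DESeq2 0 of 11 had an adjusted p under 0.05, against 1.16%. The summed level of the list was 229470, 260300 and 282140 normalized counts in WT and 314970, 388350 and 262160 in DKO skin, its most abundant gene per kilobase was *Col1a1*, and no gene was at 0 in all libraries. The median of the list by library, -0.13, -0.15 and 0.18 in WT and 0.48, 0.28 and 0.07 in DKO skin, was high in WT replicate 3 and DKO replicates 1 and 2, as for the elastic fiber genes. When the counts of the fibroblast list were used as library size, 5 of 10 elastic fiber genes had a log2 fold change above 0 and their median was -0.0039. The library size was the summed count of the list, so its most abundant genes, such as the collagen gene *Col1a1*, weighed the most in it. It is thus not a measure of fibroblast number. That scaling also moved the median of all genes tested from 0.02 to -0.28, so that the elastic fiber genes lay 0.28 above it, and 0.28 above it with TMM. A change of library size shifts all genes by nearly the same amount, so this distance could hardly change. In bulk tissue a larger share of fibroblasts and more RNA per fibroblast cannot be told apart, and the part of this list in the result was not tested further.

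Fibroblasts of the deep dermis and fascia were represented by 7 genes, of which 6 were higher in DKO skin, their median log2 fold change being 0.55. Scaled to the dermal fibroblast list, where the median of all genes tested was -0.28, 5 of these 7 genes were higher and their median was 0.26. Their sum was 4372, 4528 and 5000 normalized counts in WT and 8260.5, 6656 and 5138 in DKO skin, led per kilobase by *Cd248*, with no gene at 0 in all libraries. Every DKO library was above every WT library in this sum, and 0 of 7 genes had an adjusted p under 0.05 in edgeR, against 0.0694% of all genes (5 of 7 higher at an unadjusted p under 0.05, against 4.96%, and 1 of 7 at an adjusted p under 0.05 in DESeq2, against 1.16%, or 2 of 7 in edgeR with no filter on low counts, against 303 of 33677 genes). With 1 replicate left out, 2 to 5 of 7 were higher at an unadjusted p under 0.05 in edgeR, against 2.67% to 6.62% of all genes. With the dermal fibroblast list as library size it was 2 of 7, against 1.12%. The papillary list, led by *Apcdd1*, had 4 of 5 genes higher and a median of 0.22, 0.03 without DKO replicate 2, or 1 of 5 and -0.09 when scaled to the dermal fibroblast list. Skeletal muscle genes showed the widest difference of the lists: 19 of 19 were higher in DKO skin, their median log2 fold change being 1.10, and 0.72 without DKO replicate 1. In edgeR 17 of 19 had an unadjusted p under 0.05, against 4.96% of all genes higher, and 0 of 19 an adjusted p under 0.05, against 0.0694%. The latter count was 14 of 19 in DESeq2, against 1.16%, 16 of 19 in edgeR with no filter on low counts, against 303 of 33677 genes, and 4 of 19 without DKO replicate 1, against 0.232%. The muscle sum was 111040, 96690 and 101210 normalized counts in WT and 339610, 157720 and 159450 in DKO skin, its most abundant gene per kilobase was *Acta1*, and no gene was at 0. Removing the counts of this list before scaling left the median of the elastic fiber genes at 0.29. The part of muscle, papillary and deep dermal cells in the result was not tested further.

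**Figure D2:**
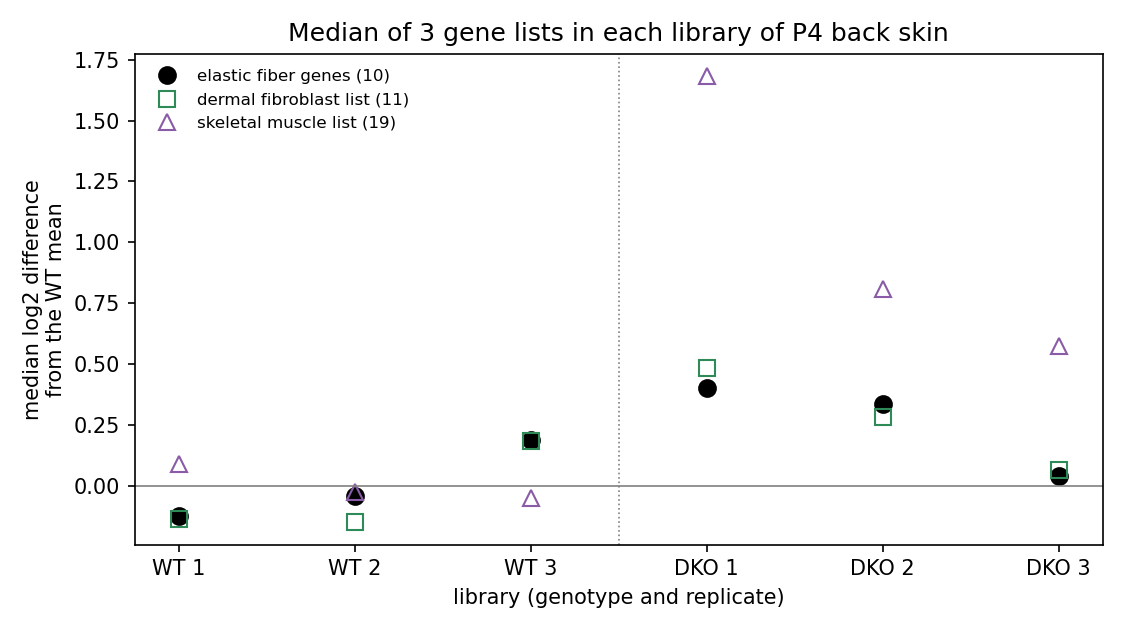
Median log2 difference from the WT mean (y axis) of the 10 elastic fiber genes (filled circles), the 11 dermal fibroblast genes (squares) and the 19 skeletal muscle genes (triangles) in each library of P4 back skin (x axis), after TMM normalization. The elastic fiber and fibroblast medians lie close to each other in each library, with WT replicate 3 above DKO replicate 3, and the muscle median of every DKO library lies above every WT library.

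The lists of other cells had smaller medians, and several changed sign with the libraries kept. The number of genes higher in DKO skin, which was 52.9% over all genes, was 7 of 10 for smooth muscle and pericytes, led by *Acta2*, with a median log2 fold change of 0.09, and 8 of 10 for endothelium, led by *Cdh5*, with 0.22. It was 6 of 9 for adipocytes, led by *Fabp4*, with 0.12, and 7 of 8 for macrophages, led by *Lyz2*, with 0.20. Tendon and cartilage, led by *Thbs4*, had 2 of 6 genes higher and a median of -0.22. Of the keratinocyte list, led by *Krt10*, 7 of 9 were higher with a median of 0.11, and its sum was 100840, 104360 and 108190 normalized counts in WT and 130060, 163390 and 125360 in DKO skin. Of the keratinocyte genes 5 of 9 were higher in DESeq2 and in edgeR with RLE, total counts or no filter. With 1 replicate left out the counts and medians were 2 to 9 of 10 and -0.07 to 0.25 for smooth muscle and pericytes, 5 to 10 of 10 and 0.08 to 0.38 for endothelium, and 1 to 8 of 9 and -0.29 to 0.27 for adipocytes. They were 4 to 7 of 8 and -0.03 to 0.37 for macrophages, 1 to 2 of 6 and -0.30 to -0.08 for tendon and cartilage, and 3 to 8 of 9 and -0.03 to 0.24 for keratinocytes. When scaled to the dermal fibroblast list the counts were 1 of 10, 3 of 10, 1 of 9, 3 of 8, 0 of 6 and 3 of 9 in the order smooth muscle, endothelium, adipocyte, macrophage, tendon and keratinocyte. The median of all genes tested was -0.28 under that scaling, so these counts cannot be set against the 52.9% found with TMM. In edgeR 0 of the 52 tested genes of these 6 lists had an adjusted p under 0.05, against 0.0694% of all genes. At an unadjusted p under 0.05 there were 7 higher and 1 lower, against 4.96% and 2.54% of all genes. In DESeq2 2 of 52 had an adjusted p under 0.05, against 1.16%. Their part in the result was not tested.

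Proteins that assemble, activate, bind or degrade elastic fibers were followed in 11 lists of 62 genes, and 57 of them passed the count filter. A higher mean in DKO skin was found for 46 of 57, against 52.9% of all genes, with a median log2 fold change of 0.30 (43 to 48 of 57 and 0.20 to 0.39 with 1 replicate left out), and for 29 of 57 with a median of 0.0022 when scaled to the dermal fibroblast list. Under that scaling the median of all genes tested was -0.28, a shift that is part of this count and of each scaled value below. None of the 57 genes passed in edgeR, which gave 0 of 57 at an adjusted p under 0.05, 12 of 57 higher in DKO skin at an unadjusted p under 0.05 and 0 of 57 lower, against 4.96% and 2.54% of all genes. With 1 replicate left out, the number higher at an unadjusted p under 0.05 ran from 2 of 57 without WT replicate 1, against 2.67% of all genes, to 23 of 57 without DKO replicate 3, against 6.43%. When scaled to the dermal fibroblast list it was 0 of 57 higher and 1 of 57 lower, against 1.12% and 7.81%. DESeq2 gave 0 of 56 genes given an adjusted p with that p under 0.05, against 1.16% of all genes, and 9 of 62 higher at an unadjusted p under 0.05, against 2.90%. Groups did not overlap for 12 of 57 genes higher and 1 of 57 lower in DKO skin, against 7.24% and 5.96% of all genes, the gene that was lower being *Atp7a* of a copper transporter, named after its values were seen. Below, the gene of each list given with its own log2 fold change was picked for the smallest p in that list. This choice favours groups that do not overlap, so the separation of a picked gene is not a result about its list.

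Of the other microfibril proteins and emilins, 5 of 5 genes were higher in DKO skin (median log2 fold change 0.32, 0.16 to 0.53 with 1 replicate left out, and 0.02 when scaled to the dermal fibroblast list). The microfibril gene *Mfap2*, both the most abundant per kilobase and the one with the smallest p, had 997, 1036 and 1148 normalized counts in the WT libraries and 1237, 2252 and 1074 in the DKO libraries. Its values overlapped, with DKO replicate 2 alone far above the rest, and the log2 fold change was 0.52, 0.13 to 0.72 with 1 replicate left out (adjusted p = 0.706 in edgeR, Benjamini-Hochberg). Of the remaining fibulin family, 2 of 4 genes were higher in DKO skin (median log2 fold change 0.09, -0.14 to 0.18 and 1 to 2 of 4 genes with 1 replicate left out, and -0.19 when scaled to the dermal fibroblast list). *Hmcn2*, which encodes hemicentin-2, had 1716, 2171 and 1938 normalized counts in the WT libraries and 2586, 3306 and 2201 in the DKO libraries and a log2 fold change of 0.47, 0.31 to 0.60 with 1 replicate left out, and no overlap between the groups (adjusted p = 0.490 in edgeR, Benjamini-Hochberg). *Efemp1* was the most abundant per kilobase at 281 over the 6 libraries, near *Loxl1* at 310.4.

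The latent TGF-β binding proteins tether TGF-β to fibrillin, and *Ltbp4* also serves elastin assembly with fibulin-5. Among them, 4 of 4 genes were higher in DKO skin (median log2 fold change 0.26, 0.06 to 0.38 and 2 to 4 of 4 genes with 1 replicate left out, and -0.07 when scaled to the dermal fibroblast list). *Ltbp1* had 1115, 1079.7 and 1146 normalized counts in the WT libraries and 1746, 1561 and 1179.6 in the DKO libraries, with each DKO library above each WT library and a log2 fold change of 0.42, 0.28 to 0.57 with 1 replicate left out (adjusted p = 0.522 in edgeR, Benjamini-Hochberg), and *Ltbp4* was the most abundant at 609 per kilobase. Of the TGF-β ligands, 3 of 3 genes were higher in DKO skin (median log2 fold change 0.37, 0.26 to 0.50 with 1 replicate left out, and 0.04 when scaled to the dermal fibroblast list). *Tgfb1*, the most abundant ligand gene per kilobase, had 636, 650.2 and 651 normalized counts in the WT libraries and 769, 1274 and 768 in the DKO libraries. The WT values were nearly equal and all DKO values lay above them, DKO replicate 2 the most, for a log2 fold change of 0.54, 0.26 to 0.66 with 1 replicate left out (adjusted p = 0.531 in edgeR, Benjamini-Hochberg).

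Among the other lysyl oxidases and the genes that activate them, 7 of 8 genes were higher in DKO skin (median log2 fold change 0.35, 0.17 to 0.41 with 1 replicate left out, and 0.05 when scaled to the dermal fibroblast list). *Bmp1*, whose protease cleaves the lysyl oxidase precursor, had 2057, 2058 and 2275 normalized counts in the WT libraries and 2689.5, 2850.2 and 2330.3 in the DKO libraries, without overlap, and its log2 fold change was 0.30, 0.24 to 0.38 with 1 replicate left out, and -0.01 when scaled to the dermal fibroblast list (adjusted p = 0.619 and 0.983, edgeR with Benjamini-Hochberg adjustment). *Postn*, the gene of the matrix protein periostin, was the most abundant at 1576 per kilobase. In the ADAMTS family that binds fibrillin, 7 of 8 genes were higher in DKO skin (median log2 fold change 0.51, 0.29 to 0.68 with 1 replicate left out, and 0.18 when scaled to the dermal fibroblast list). *Adamts17* had 679, 749 and 812 normalized counts in the WT libraries and 1195, 1167 and 902 in the DKO libraries, all DKO libraries above all WT libraries. Its log2 fold change of 0.54, 0.45 to 0.66 with 1 replicate left out (SE 0.151) had the smallest p of the 57 partner genes and did not pass (adjusted p = 0.342, quasi-likelihood F test of edgeR, Benjamini-Hochberg adjustment). *Adamts10* was the most abundant of the family at 134 per kilobase. Of the proteoglycans and the chaperone *Fkbp10*, 3 of 3 genes were higher in DKO skin (median log2 fold change 0.30, 0.19 to 0.41 with 1 replicate left out, and 0.00 when scaled to the dermal fibroblast list). *Vcan*, which encodes the fibrillin-binding proteoglycan versican, had 7282, 6554 and 7830.2 normalized counts in the WT libraries and 12395, 7384 and 8304 in the DKO libraries with overlap and a log2 fold change of 0.37, 0.11 to 0.52 with 1 replicate left out (adjusted p = 0.762 in edgeR, Benjamini-Hochberg), and *Bgn* was the most abundant at 1536 per kilobase.

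On the receiving side, 6 of 8 genes were higher in DKO skin (median log2 fold change 0.10, 0.08 to 0.18 with 1 replicate left out, and -0.20 when scaled to the dermal fibroblast list) among the integrin subunits. *Itga5* had 597, 682 and 678 normalized counts in the WT libraries and 1175, 939.8 and 685 in the DKO libraries, with DKO replicate 3 barely above the WT range, and a log2 fold change of 0.51, 0.30 to 0.70 with 1 replicate left out (adjusted p = 0.530 in edgeR, Benjamini-Hochberg). *Itgb1*, its partner subunit and the most abundant at 926 per kilobase, had overlapping groups. Of the elastin receptor complex, 1 of 3 genes were higher in DKO skin (median log2 fold change -0.01, -0.10 to 0.16 and 1 to 2 of 3 genes with 1 replicate left out, and -0.32 when scaled to the dermal fibroblast list). *Ctsa* had 2231, 2114 and 1735 normalized counts in the WT libraries and 2074, 3142 and 2269 in the DKO libraries and a log2 fold change of 0.30, 0.10 to 0.40 with 1 replicate left out, and -0.04 when scaled to the dermal fibroblast list (adjusted p = 0.811 and 0.929, edgeR with Benjamini-Hochberg adjustment).

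Of the proteases that can degrade elastin, 6 of 9 had enough counts for a test, and 5 of 6 genes were higher in DKO skin (median log2 fold change 0.18, 0.10 to 0.29 with 1 replicate left out, and -0.15 when scaled to the dermal fibroblast list). *Mmp2* had 2246, 2187 and 2274 normalized counts in the WT libraries and 2822, 3251 and 2655 in the DKO libraries, without overlap, and a log2 fold change of 0.38, 0.30 to 0.44 with 1 replicate left out (SE 0.122, adjusted p = 0.429 in edgeR, Benjamini-Hochberg). The macrophage elastase gene *Mmp12*, named after its values were seen, was at 8.15, 7.64 and 5.99 normalized counts in WT and 5.26, 9.93 and 7.96 in DKO skin and was not tested, and *Ctsl* was the most abundant at 991 per kilobase. Of the protease inhibitors, 3 of 5 genes were higher in DKO skin (median log2 fold change 0.09, 0.02 to 0.15 with 1 replicate left out, and -0.22 when scaled to the dermal fibroblast list). *Timp1* had 18.3, 23.8 and 18.8 normalized counts in the WT libraries and 40.8, 36.4 and 30.9 in the DKO libraries, low levels with every DKO library above every WT library, and a log2 fold change of 0.81, 0.70 to 0.94 with 1 replicate left out (SE 0.308, adjusted p = 0.539 in edgeR, Benjamini-Hochberg). *Cst3* was the most abundant inhibitor gene at 1019.6 per kilobase.

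**Figure D3:**
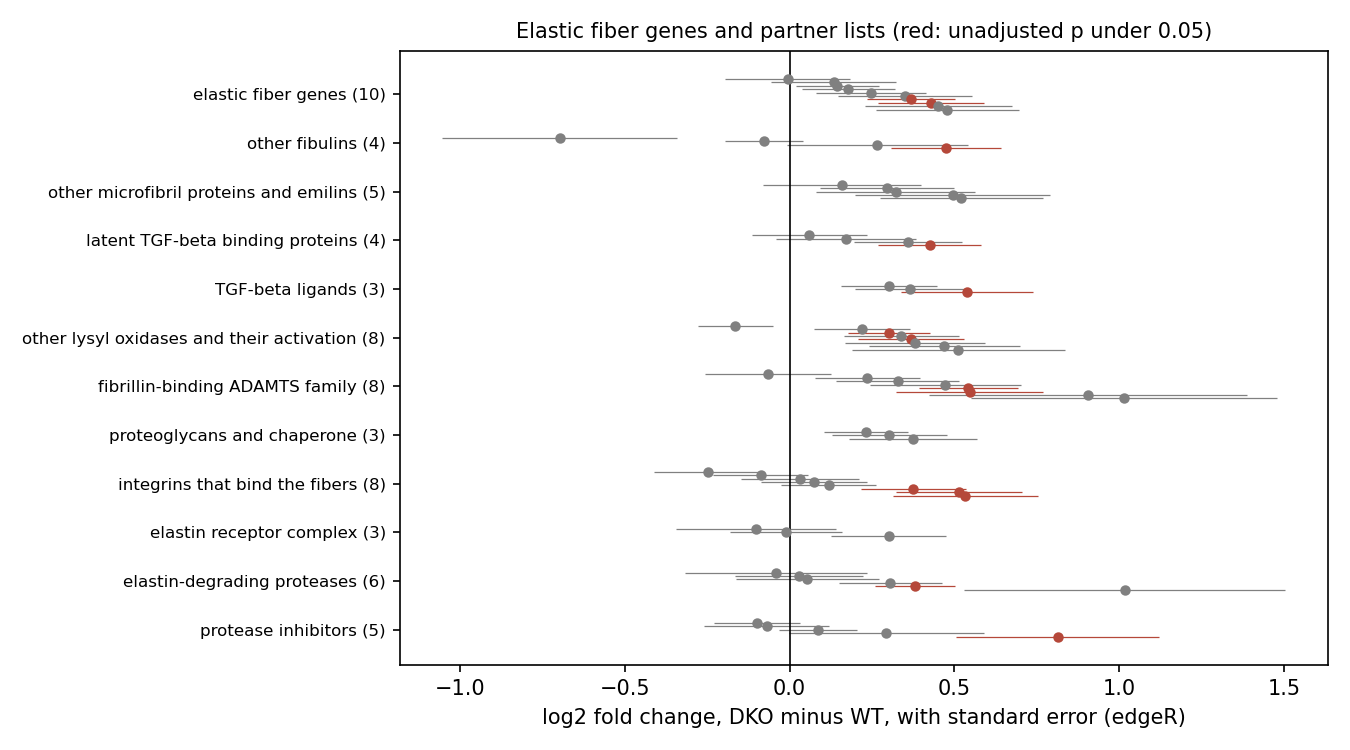
Log2 fold change of DKO over WT with its standard error (x axis) for the 10 elastic fiber genes and the 57 tested genes of 11 partner lists (y axis, number of genes in parentheses), from edgeR after TMM normalization, with genes at an unadjusted p under 0.05 in red. Most points lie to the right of 0, 9 of 10 and 46 of 57, while 0 genes reached an adjusted p under 0.05. When scaled to the dermal fibroblast list, 5 of 10 and 29 of 57 were above 0, with the median of all genes tested at -0.28.

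The genes whose pattern over the 6 libraries was most like that of the elastic fiber core were sought among 6163 genes outside all lists with a mean normalized count of at least 500. Likeness was the root mean square difference between centred log2 levels and the mean profile of the 10 genes, for which the median over these candidates was 0.272. Among the 5 nearest were *Marveld1* at 0.0394, *Col6a3* at 0.0443, *Vapb* at 0.0444 and *Irf3* at 0.0499. *Col6a3*, a chain of collagen VI, had 12918, 13178 and 14732 normalized counts in WT and 18742, 18418 and 13967 in DKO skin. Like the mean profile it was high in WT replicate 3 and in DKO replicates 1 and 2, with DKO replicate 3 below WT replicate 3. The 10 genes themselves had distances from their own mean of 0.0750 for *Fbln5* to 0.208 for *Fbn1* and 0.210 for *Eln*. They were not picked for closeness, as the nearest genes were, so these distances were not compared.

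The fibulin genes are a family, and the bases before their starts are shown where these bases were free of annotated exon. The fold changes of the fibulin genes were not tested against each other. RefSeq promoters (build GRCm38.p6) were found for 5 of the 10 genes, *Fbn1*, *Fbln1*, *Fbln2*, *Fbln5* and *Efemp2*, and the 250 bases before the first listed start of each were searched on both strands for the letters GCCNNNGGC, the core bound by AP-2 factors, which read the same on both strands, and for GGGCGG, the letters of a GC box, and TATAAA, those of a TATA box. GCCNNNGGC was found in 1 of 5, *Fbln1*, and in 13.7% of 32851 promoter windows of the same length. The windows of *Fbn1* and *Fbln2* lie wholly in annotated exons, so they hold bases inside these genes as placed above. GGGCGG was found in 4 of 5, all but *Fbln1* and including those windows, and in 32.7% of windows, and TATAAA in 0 of 5 and in 12.4%. The windows are given 5′ to 3′ in the direction of the gene, with matches in capitals, for *Fbln1* to GCCNNNGGC and for *Fbln5* and *Efemp2* to GGGCGG or its reverse complement.
*Fbln1* (GRCm38.p6 chr15:85205699-85205948, plus strand): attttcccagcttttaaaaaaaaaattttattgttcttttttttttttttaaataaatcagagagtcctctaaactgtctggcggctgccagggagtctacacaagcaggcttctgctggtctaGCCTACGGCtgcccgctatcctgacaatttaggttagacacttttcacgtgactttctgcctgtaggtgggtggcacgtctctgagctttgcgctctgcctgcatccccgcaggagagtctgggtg
*Fbln5* (GRCm38.p6 chr12:101819120-101819369, minus strand): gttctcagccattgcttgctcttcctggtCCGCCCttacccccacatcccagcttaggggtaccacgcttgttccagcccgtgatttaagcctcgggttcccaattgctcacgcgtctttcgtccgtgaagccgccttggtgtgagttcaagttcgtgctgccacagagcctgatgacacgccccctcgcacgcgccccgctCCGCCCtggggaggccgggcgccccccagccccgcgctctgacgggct
*Efemp2* (GRCm38.p6 chr19:5473696-5473945, plus strand): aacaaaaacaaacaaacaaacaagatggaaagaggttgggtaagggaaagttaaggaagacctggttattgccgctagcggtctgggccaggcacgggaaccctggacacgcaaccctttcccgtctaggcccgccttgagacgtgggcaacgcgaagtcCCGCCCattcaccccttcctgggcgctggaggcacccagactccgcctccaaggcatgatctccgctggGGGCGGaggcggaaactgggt
A match describes these letters only. The log2 fold changes of the genes were 0.18 for *Fbln1*, 0.25 for *Fbln5* and -0.0063 for *Efemp2*, and none of them passed the test.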

How the data were processed

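The deposited values are counts per gene, whole numbers without normalization, which the authors made by trimming paired-end reads of rRNA-depleted total RNA with Trimmomatic 0.36, mapping them to GRCm38 with STAR 2.5.2b and counting them with featureCounts of Subread 1.5.2 (versions as given in the paper). The strand setting, the treatment of reads that map to several genes and the annotation release are not given in the sources used here. Samples were grouped by the genotype in their labels, and replicates were numbered in accession order. The 7 epidermis files hold 0 for all 49315 genes and were not used here.

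Symbols were found for 48970 of 49315 identifiers (99.3%), and each listed symbol matched 1 identifier. The 6 P4 libraries were fitted with edgeR 4.0.16 under R 4.3.3 (filterByExpr, TMM, quasi-likelihood F test, Benjamini-Hochberg over 20168 genes), after a test on simulated counts. DESeq2, the tool named in the paper, served as an alternative (version 1.42.0). The others were RLE size factors, total counts, removal of the skeletal muscle list, the dermal fibroblast list as library size, no filter or at least 10 counts in every library, the title number as a block, only the libraries of number 47347, and each replicate or gene left out. Per-kilobase levels use the exon length in the count files. Log2 levels per library have 0.5 added.

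The genes and lists were chosen with earlier results of these data known, and the pair ratios and promoter motifs after the data were seen. Named in the text are all 10 genes, *Kctd1* and *Kctd15*, in each partner list the gene with the smallest p and the most abundant per kilobase, the most abundant gene of each marker list, *Col3a1* as the denominator of a ratio, *Atp7a* and *Mmp12* after their values were seen, antisense genes that overlap, and 4 of the 5 genes most alike in pattern (the other is not reported here).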

Additional observations from a re-analysis of the deposited data

How the results depend on the processing

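In all 15 alternatives 0 of 10 elastic fiber genes were called and 0 had an adjusted p under 0.05 in edgeR or DESeq2, with 0 to 5 of 10 higher at an unadjusted p under 0.05, against 1.12% to 6.62% of all genes. The number of genes called among all tested was 14, and 149 in DESeq2, 22 with total counts, 66 with the dermal fibroblast list as library size, 210 with no filter on low counts and 9 with only the libraries of title number 47347. With the title number as a replicate block it was 35, 9 of 10 elastic fiber genes were higher and the median was 0.29. There 5 of 10, and 18 of 57 partner genes, were higher at an unadjusted p under 0.05, against 5.77% of all genes, and 1 of 19 skeletal muscle genes had an adjusted p under 0.05, against 0.188%. Deviations from the group mean had correlations of -0.147 to 0.440 between WT and DKO libraries of the same number, and -0.293 to -0.135 between those of different numbers. Deviations from a group mean cancel out within the group, so values of both signs are bound to occur for each library. They cannot decide whether the libraries were paired. The labels do not state it, so the numbers were not read as pairs of mice. Every library correlated best with one of its own number, but these values depend on each other and no conclusion was drawn from them. Leaving out each replicate gave 2 to 36 genes called.

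The 9 of 10 genes higher in DKO skin became 5 of 10 with the fibroblast list as library size, where the median was -0.0039 and the log2 fold change was -0.14 for *Fbln1*, -0.0506 for *Fbln5*, -0.18 for *Mfap4*, -0.14 for *Lox*, -0.33 for *Efemp2*, -0.00951 for *Bmp1* and -0.0398 for *Ctsa*. That scaling lowered the median of all genes tested from 0.02 to -0.28, a shift that is part of these counts and signs. The median of the elastic fiber genes lay 0.28 above it there and with TMM, a distance that a change of library size leaves nearly unchanged by its nature. Without a replicate, 8 to 10 of 10 elastic fiber genes were higher, with a median of 0.16 to 0.42. Then 1 to 7 genes had every DKO library above every WT library, against 9.40% to 14.6% of all genes. With only the libraries of number 47347, 7 of 10 genes did not overlap, all higher in DKO skin, against 17.7% of all genes, and *Efemp2* stood at 0.0243. *Efemp2* was 0.0641 without WT replicate 3 and 0.15 without DKO replicate 3, and *Mfap4* -0.0364 without DKO replicate 2 and 0.31 without WT replicate 3. The cause of these shifts was not tested. Leaving out each of the 10 genes kept the median between 0.25 and 0.35.

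Each group holds 3 libraries, and the biological coefficient of variation was 20.0%. The shallowest library, DKO replicate 1, holds the highest value of 4 of the 10 genes. Bulk counts hold no information on the cell of origin, on splice forms or on the fibers as protein.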
